A study of Mus musculus with 40 samples.

Results

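Malt1-/- Th17 cells were set against wild-type (WT) Th17 cells after 48 h of induction, with 5 bead arrays of each genotype. These 10 arrays, chosen by their sample titles, were 10 of the 40 of the series, which also holds Th1 cells and a time of 72 h. The starting cells were naive CD4+CD62L+ T cells, taken from the spleens and lymph nodes of C57BL6 mice 8 to 12 weeks old, and the genotypes differed in the loss of Malt1. The deleted part of Malt1 and the stimulation of the cultures are not given in the sources used here. Nothing states that replicates are separate mice, so a p-value here covers only sample-to-sample spread, part of which may be technical. In bulk cultures of this kind, fewer cells that make an RNA and less of it per cell cannot be told apart.

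MALT1 is a scaffold and a protease in lymphocytes. With its partner BCL10 it links the T cell receptor to the kinase TAK1 and to NF-kappaB, and its protease cuts RNA-binding proteins, among them Regnase-1 and Roquin, that destabilise messenger RNAs of activated T cells. Th17 cells, the helper cells that secrete interleukin 17, defend barrier tissues, and activated T cells of most kinds raise glycolysis and lipid synthesis.

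Signals are given on the log2 scale after background correction and quantile normalization, and differences are Malt1-/- minus WT with the standard error (SE) of the model. A gene is said to have risen or fallen where its adjusted p was under 0.05 in a limma fit of all 40 arrays, with Benjamini-Hochberg adjustment over the 10730 genes tested. The 10 arrays detected 14640 to 17292 probes each, and their number limits the precision. The T cell markers of the marker list were present: 7 of 9 were tested, all of these were detected on all 10 arrays and none passed the test. Their summed signal ran from 34802 to 41079 in Malt1-/- and from 33914 to 53098 in WT.

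One array of each genotype stood apart. WT replicate 5 correlated at 0.977 with the Malt1-/- arrays and at 0.969 with the other WT arrays, and on the first principal component it lay at 18.3, among the Malt1-/- arrays (13.3 to 27.9) and away from the other WT arrays (-32.8 to -21.7). Its Malt1 signal of 12.96 was nevertheless that of a WT array. It was nearer to the Malt1-/- mean than to the mean of the other WT arrays in 55.9% of the 10730 genes. Malt1-/- replicate 1 stood apart for single genes, among them Il17a and Il17f. No array was left out, but results that rest on these arrays are given with and without them.

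**Figure D1:**
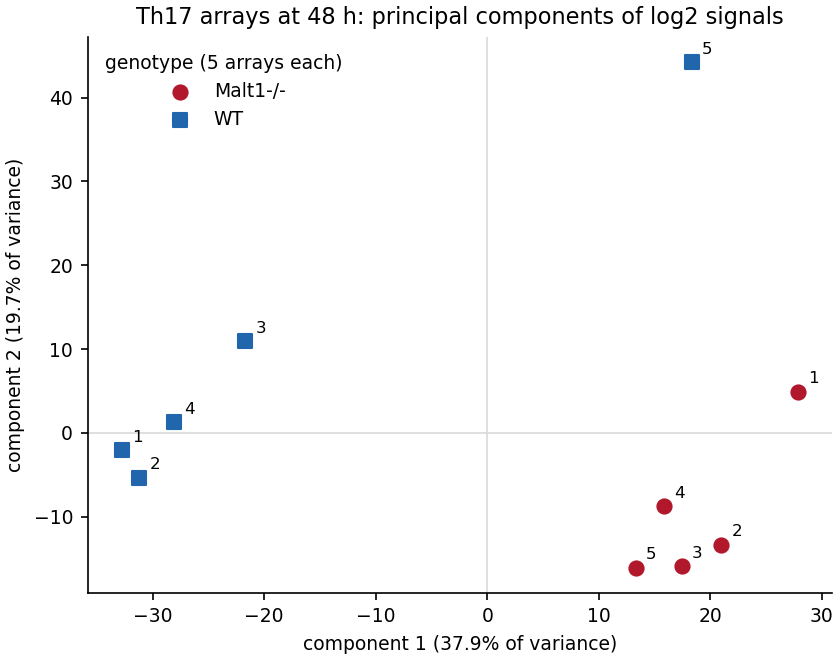
The first 2 principal components of the log2 signals of the 10 Th17 arrays at 48 h, with the share of variance on each axis (37.9% and 19.7%) and replicate numbers beside the points. The Malt1-/- arrays (red circles) lie together, 4 WT arrays (blue squares) lie at the left, and WT replicate 5 lies at 18.3 on the first and 44.2 on the second component.

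Malt1 itself was checked first. It read 8.03, 8.58, 8.72, 8.78 and 9.10 in the 5 Malt1-/- arrays and 11.90, 12.42, 12.54, 12.63 and 12.96 in the 5 WT arrays. No Malt1-/- value reached a WT value, and the difference was -3.85 ± 0.30 (14.4-fold, adjusted p = 3.2e-11). The transcript stayed above background on all 5 Malt1-/- arrays.

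At 48 h, 685 of the 10730 genes passed the test (6.38%), 366 of them higher (3.41%) and 319 lower (2.97%) in Malt1-/- cells. These shares are the background for the gene list counts given below. At least a 2-fold difference was reached by 137 of the higher and 72 of the lower genes. The median over all genes was -0.01 and 50.8% of genes lay below 0. The remaining 49.2% lay above 0. The groups did not overlap at all in 10.1% of genes, with Malt1-/- higher in 5.35% and lower in 4.73%. The balance of directions depended on the scaling: when arrays were scaled to a common median and not to a common distribution, the median of all genes moved to 0.17 and 93.1% of 581 called genes were higher, against 53.4% here. Dropping WT replicate 5 gave 1156 calls, dropping Malt1-/- replicate 1 gave 364, and dropping both gave 657, of which 612, 343 and 461 were among the 685. Dropping any other single array gave 281 to 411.

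The signature cytokines of the lineage fell. Il17a encodes interleukin 17A, which calls neutrophils to tissue. It read 6.92, 7.16, 7.20, 7.66 and 10.21 in Malt1-/- and 9.53, 10.59, 10.73, 11.15 and 11.40 in WT. A single Malt1-/- array, replicate 1, lay inside the WT range, while the other four were below every WT array. The difference was -2.85 ± 0.49 (adjusted p = 9.3e-04) and -3.45 without that array. Il17f, the related cytokine gene, read 12.27, 12.30, 12.38, 12.39 and 13.74 in Malt1-/- and 14.43 to 14.58 in WT. Its groups did not overlap, and replicate 1 was again the highest Malt1-/- array (difference -1.90 ± 0.49, adjusted p = 0.0200). In the Th17 programme list, 17 genes were tested, 3 fell, 1 rose and 13 did not pass, with a median of -0.50. Tmem176a, a membrane protein gene expressed in Th17 cells, also fell (-1.20 ± 0.29, adjusted p = 0.0145), a call lost without Malt1-/- replicate 3 (adjusted p = 0.0592).

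Other genes of the lineage gave mixed values. Il21, a cytokine of Th17 and follicular helper cells, differed by 0.38 ± 0.42 (adjusted p = 0.639). Rora, a nuclear receptor gene of the Th17 programme, differed by -0.50 ± 0.37, and Ccr6, the receptor that guides Th17 cells to Ccl20, by -1.21 ± 0.51. Neither passed, but a dimmer Ccr6 probe gave -1.03 and did (adjusted p = 0.0487 over all probes). Irf4, a transcription factor needed for Th17 differentiation, read 12.44 to 12.58 in Malt1-/- and 12.77 to 12.87 in WT: the groups did not overlap, yet the shift of -0.30 ± 0.11 missed the threshold (adjusted p = 0.0783). Stat3, which transmits interleukin 6 signals, was higher (0.80 ± 0.25, adjusted p = 0.0476), a call that held only without WT replicate 5 when single arrays were left out (adjusted p 0.0618 to 0.132 without any other array). Its 2 other probes gave 0.54 and 0.01 and did not pass. Il24, a cytokine of the interleukin 10 family, read 9.33 to 10.15 in 4 WT arrays, 4.66 in WT replicate 5 and 4.88 to 6.41 in Malt1-/-. With all arrays it did not pass (-2.71 ± 1.22, adjusted p = 0.175), and without WT replicate 5 it did (-3.70, adjusted p = 0.0446).

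The cytokine losses reached beyond interleukin 17. Among 22 secreted helper cytokines tested, 4 fell (Lif, Il10, Tnf and Ebi3), 2 rose (Ltb and Tnfsf4) and 16 did not pass, with a median of -0.01. Il10, which restrains inflammation, read 6.26, 7.13, 7.27, 7.53 and 7.99 in Malt1-/- and 8.41, 10.20, 10.28, 10.41 and 11.02 in WT. The groups did not overlap, and the lowest WT value was that of replicate 5 (difference -2.83 ± 0.61, adjusted p = 0.00627). Lif, an interleukin 6 family cytokine, read 4.96 to 5.41 in Malt1-/-, where 2 of 5 arrays detected it, and 6.97 to 7.88 in WT. The groups were far apart (difference -2.33 ± 0.35, adjusted p = 1.6e-04), another probe gave -1.98, and one detected on 1 of the 10 arrays gave -0.27. Tnf, tumour necrosis factor, read 6.08, 6.21, 6.72, 6.83 and 8.52 in Malt1-/- and 8.17, 8.85, 8.90, 9.23 and 9.30 in WT. Malt1-/- replicate 1 overlapped WT and the others did not (difference -2.02 ± 0.45, adjusted p = 0.00816, -2.43 without it).

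Ebi3, a subunit of interleukin 27 and 35, was detected on 1 Malt1-/- and 4 WT arrays and fell by 1.86 ± 0.56 (adjusted p = 0.0401), a call that held only without Malt1-/- replicate 3 or WT replicate 5 (adjusted p 0.0706 to 0.100 without any other array). Il2, the growth factor of T cells, read 6.41 to 7.32 in 4 Malt1-/- arrays, 9.87 in replicate 1 and 8.48 to 10.76 in WT. Its difference of -2.31 ± 0.79 missed the threshold (adjusted p = 0.0697) and passed without replicate 1 (-2.94, adjusted p = 0.0311). A pair of genes of the tumour necrosis factor family went the other way. Ltb, a lymphotoxin subunit, read 11.80 to 12.01 in Malt1-/- and 10.59 to 11.12 in WT (1.07 ± 0.24, adjusted p = 0.0102), and Tnfsf4, the ligand of OX40, detected on 5 Malt1-/- and 2 WT arrays, rose by 1.51 ± 0.35 (adjusted p = 0.0105). Ifng, the Th1 cytokine, differed by 1.22 ± 0.48 (adjusted p = 0.113), while its other probe gave 1.59 and passed (adjusted p = 0.0193 over all probes). Foxp3, the regulatory T cell factor, differed by -0.20 ± 0.15 (adjusted p = 0.447), a sign that turned with median scaling and with the mean of all probes. Gata3, the Th2 factor, rose by 1.77 ± 0.36 (adjusted p = 0.00349): it read 6.22 to 8.25 in Malt1-/-, 4.66 to 4.77 in 4 WT arrays and 6.43 in WT replicate 5. It was detected on 5 Malt1-/- arrays and 1 WT array.

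**Figure D2:**
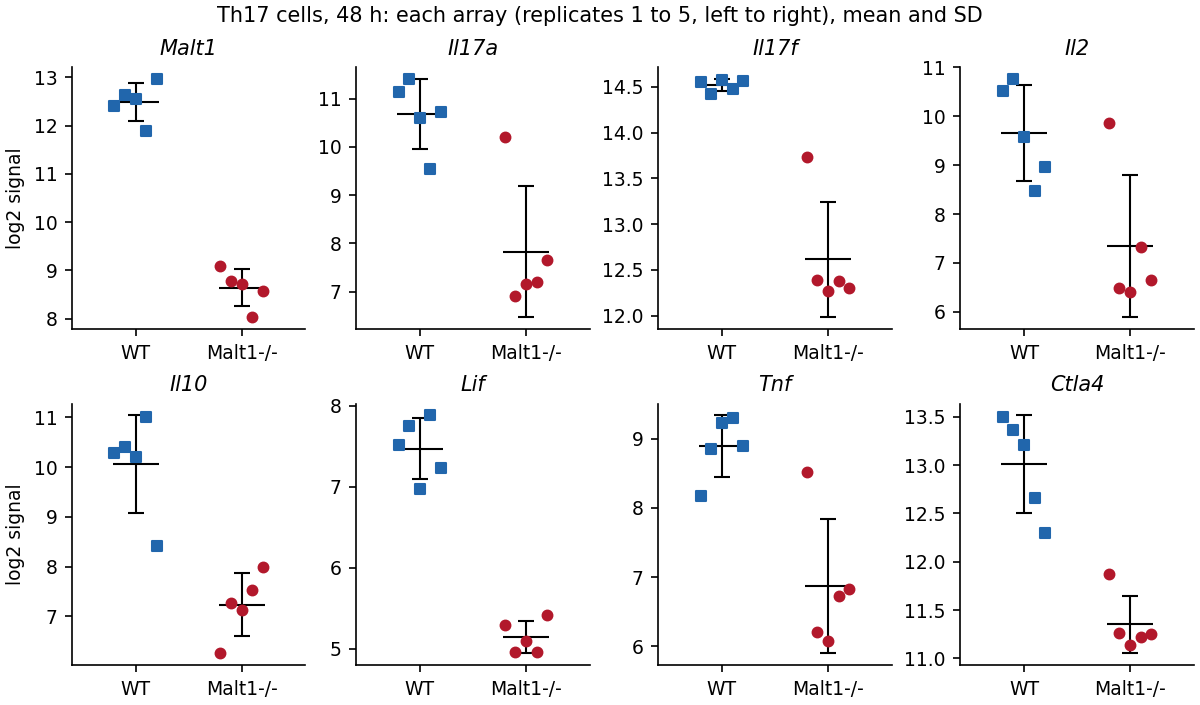
Log2 signal of Malt1, 6 cytokine genes and Ctla4 on each array, with replicates 1 to 5 from left to right in each genotype, the mean (long bar) and the SD (short bars). Malt1-/- replicate 1, the left red point, is the highest Malt1-/- value of Il17a (10.21), Il17f (13.74), Il2 (9.87) and Tnf (8.52).

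Inhibitory receptors and ligands moved in opposite directions. Ctla4, a receptor that competes with CD28 for its ligands, read 11.14, 11.23, 11.25, 11.26 and 11.88 in Malt1-/- and 12.30, 12.66, 13.21, 13.36 and 13.50 in WT. The groups did not overlap (difference -1.66 ± 0.41, adjusted p = 0.0162). The ligands of PD-1 were higher. Cd274, which encodes PD-L1, read 8.58 to 9.28 in Malt1-/-, 7.50 to 7.56 in 4 WT arrays and 7.97 in WT replicate 5 (1.22 ± 0.22, adjusted p = 0.00139). Pdcd1lg2, which encodes PD-L2, read 8.43 to 8.76 in Malt1-/- and 6.12 to 7.69 in WT (1.72 ± 0.35, adjusted p = 0.00390). Cd160, a receptor for HVEM, rose by 1.80 ± 0.54 (adjusted p = 0.0410), a call that held only without WT replicate 5 (9.03 in that array, 5.83 to 7.29 in the other WT arrays; adjusted p 0.0585 to 0.123 without any other array). Of 17 costimulatory and inhibitory receptors and ligands tested, 3 rose, 1 fell and 13 did not pass (median 0.31).

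Messenger RNAs that Regnase-1 or Roquin bind did not move one way. Of 18 tested, 3 fell (Tnf, Ctla4 and Ier3), 2 rose (Tnfsf4 and Cd274) and 13 did not pass, with a median of -0.16. Over all genes, 2.97% fell and 3.41% rose. Zc3h12a, the gene of Regnase-1 itself, differed by -0.14 ± 0.18 (adjusted p = 0.675), with the opposite sign under median scaling. None of the 11 genes whose proteins MALT1 cleaves passed, beside 6.38% of all genes. At that share a list this short can hold none, so the count does not set these genes apart. Among 16 tested genes of the MALT1 complex and its partners, Malt1 fell and Map3k7, which encodes TAK1, was the single one to rise (0.83 ± 0.26, adjusted p = 0.0477). Its other probe gave -0.11 and did not pass. The call held only without WT replicate 5 (adjusted p 0.0539 to 0.107 without any other array).

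Genes of the NF-kappaB family and of its inhibitors were higher where they passed at all. Of 11 subunit and inhibitor genes tested, 3 rose (Nfkb2, Rela and Nfkbia), none fell and 8 did not pass, beside 3.41% of all genes higher. Their median was -0.13, which became 0.18 under median scaling. Promoters of the list are shown because their kappaB motifs were searched. In the 250 bases before the RefSeq start (GRCm38.p6), the kappaB motif was looked for on both strands, and matches are in capitals in the sequences. The motif was found in 3 of 9 subunit and inhibitor genes with a promoter (Nfkb2, Nfkbia and Rel), in 2 of 18 NF-kappaB targets, in 5.76% of genes that rose, in 4.21% of genes that fell and in 3.13% of all 8760 tested genes with a promoter. Among called genes with a promoter, 2 of 3 subunit and inhibitor genes and 0 of 3 NF-kappaB targets held the motif. Nfkb2 held 3 matches, of which 2 overlap, Nfkbia held 1 and Rela held 0.
Nfkb2, chr19:46304487-46304736, + strand: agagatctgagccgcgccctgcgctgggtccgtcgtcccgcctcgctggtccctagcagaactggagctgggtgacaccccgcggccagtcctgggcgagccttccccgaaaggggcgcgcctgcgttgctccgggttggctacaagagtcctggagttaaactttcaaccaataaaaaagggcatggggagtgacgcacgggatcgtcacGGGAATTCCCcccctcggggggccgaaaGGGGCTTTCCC
Nfkbia, chr12:55492648-55492897, - strand: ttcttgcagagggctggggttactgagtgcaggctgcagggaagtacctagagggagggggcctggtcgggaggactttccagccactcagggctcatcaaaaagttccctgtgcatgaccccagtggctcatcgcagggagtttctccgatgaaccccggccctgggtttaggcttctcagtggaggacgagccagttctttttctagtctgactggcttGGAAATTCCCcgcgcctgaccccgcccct

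Nfkb2, the p100 precursor of the alternative pathway, read 9.04, 9.10, 9.43, 9.57 and 9.72 in Malt1-/- and 7.63, 8.10, 8.22, 8.57 and 8.79 in WT. Each Malt1-/- array was above each WT array (1.11 ± 0.21, adjusted p = 0.00196). Rela, the p65 subunit, read 11.89 to 12.38 in Malt1-/- and 11.26 to 11.59 in WT, again with no overlap (0.67 ± 0.15, adjusted p = 0.00689). Nfkbia, the inhibitor IkappaB alpha and a classic early target, differed by 0.75 ± 0.23 (adjusted p = 0.0445), a call that held only without WT replicate 4 (adjusted p 0.0536 to 0.119 without any other array). A dimmer Nfkbia probe gave 1.65 and passed. Tnfaip3, the feedback inhibitor A20, differed by 0.25 ± 0.33 (adjusted p = 0.711), and its sign turned when both arrays that stood apart were left out.

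The targets of NF-kappaB split as well. Of 21 tested, 2 rose (Birc3 and Irf1), 2 fell (Ier3 and Tnfaip8) and 17 did not pass (median 0.17), where 3.41% of all genes rose and 2.97% fell. This split also depended on the scaling: under median scaling 2 rose and none fell (median 0.44 beside 0.17 for all genes). Bcl2l1 of this list did not pass (-1.23), but a dimmer probe gave -1.28 and did (adjusted p = 0.0296 over all probes). Another Bcl2l1 probe gave -1.16 and did not pass. Birc3, an inhibitor of apoptosis, read 6.97, 7.63, 7.65, 7.79 and 8.34 in Malt1-/- and at most 6.33 in WT. The groups were far apart (1.51 ± 0.35, adjusted p = 0.0109). Irf1, an interferon response factor, rose by 0.88 ± 0.22 (adjusted p = 0.0147), a call lost without WT replicate 2 (adjusted p = 0.0544), and its 4 further probes did not pass. Ier3, an early response gene, read 6.17 to 7.66 in Malt1-/-, 8.85 to 9.90 in 4 WT arrays and 7.42 in WT replicate 5. It fell by 1.88 ± 0.56 (adjusted p = 0.0388), a call that held only without Malt1-/- replicate 1 or WT replicate 5 (adjusted p 0.0611 to 0.101 without any other array). Tnfaip8, an apoptosis regulator, fell by 0.71 ± 0.12 (adjusted p = 1.0e-03) with no overlap of the groups. This gene lies on chromosome 18, as Malt1 does, 46 tested genes from it.

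Early response genes of the AP-1 family also split. Of 19 immediate early genes tested, Jun rose, Junb, Jund and Dusp4 fell, and 15 did not pass (median 0.30). The split depended on the scaling: under median scaling 1 rose and none fell (median 0.40 beside 0.17 for all genes). Dusp4, a phosphatase that switches off MAP kinases, read 9.88 to 10.16 in 4 Malt1-/- arrays, 10.98 in replicate 1 and 11.20 to 11.60 in WT (-1.26 ± 0.29, adjusted p = 0.0107). Junb, an AP-1 subunit that Th17 cells need, read 10.71 to 11.28 in Malt1-/- and 11.37 to 11.91 in WT (-0.69 ± 0.18, adjusted p = 0.0230). The call of Junb was lost without WT replicates 1 or 2 or Malt1-/- replicates 2 or 3 (adjusted p 0.0529 to 0.0664). The call of Jund (-0.89 ± 0.24) was lost without WT replicate 2 or Malt1-/- replicates 2 or 5 (adjusted p 0.0586 to 0.0801), and that of Jun (0.86 ± 0.24) without WT replicate 1 or Malt1-/- replicates 1, 2 or 4 (adjusted p 0.0513 to 0.113).

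**Figure D3:**
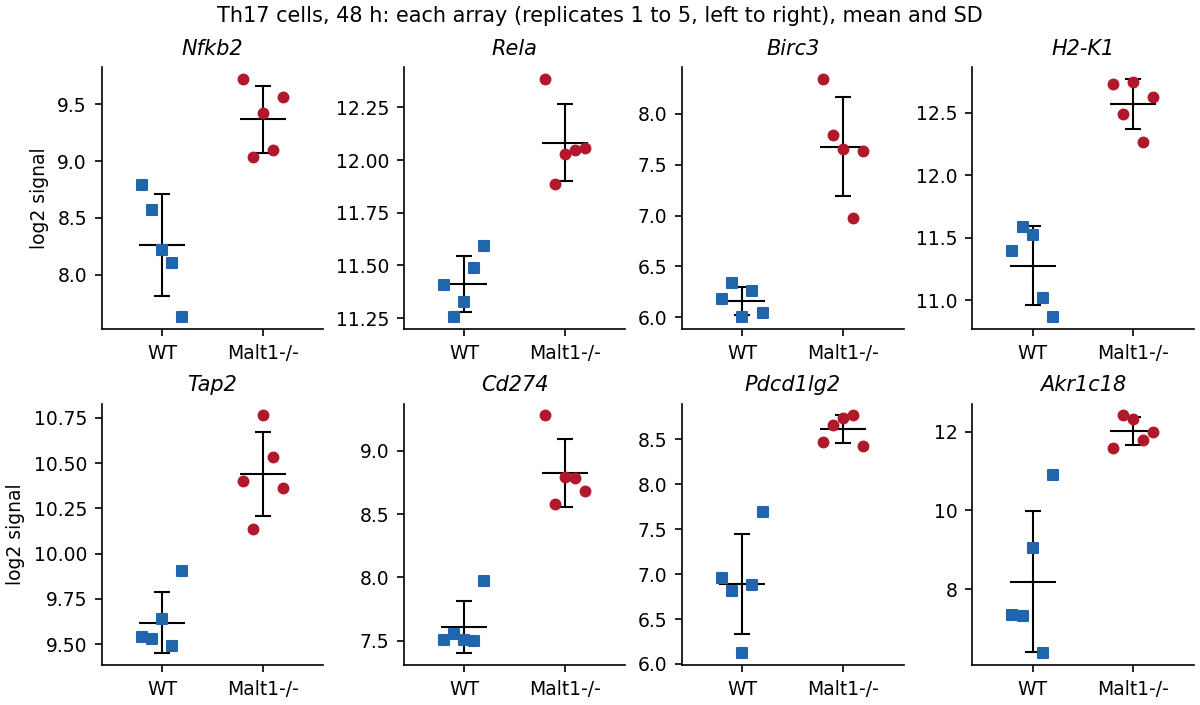
Log2 signal of 8 genes that were higher in Malt1-/- cells, drawn as the cytokine genes were: replicates 1 to 5 from left to right, mean and SD. No WT point reaches a Malt1-/- point, and WT replicate 5 is the highest WT array for Rela, Tap2, Cd274, Pdcd1lg2 and Akr1c18 and the lowest for Nfkb2 and H2-K1.

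Some genes of class I antigen presentation rose. Of 16 tested, 5 rose (H2-K1, H2-T10, Tap2, Erap1 and Nlrc5), none fell and 11 did not pass, with a median of 0.26 against -0.01 over all genes. Of all genes, 3.41% rose. H2-K1, a classical class I heavy chain, read 12.26, 12.49, 12.63, 12.73 and 12.74 in Malt1-/- and 10.86, 11.02, 11.39, 11.52 and 11.59 in WT. The groups did not overlap (1.29 ± 0.27, adjusted p = 0.00514), but 2 dimmer H2-K1 probes gave 0.44 and 0.23 and did not pass, and class I genes share sequence. Tap2, which carries peptides into the endoplasmic reticulum, read 10.13 to 10.76 in Malt1-/- and 9.49 to 9.90 in WT (0.82 ± 0.17, adjusted p = 0.00465). Nlrc5, the transactivator of class I genes, read 8.17 to 8.61 in Malt1-/- and 7.48 to 8.14 in WT (0.63 ± 0.16, adjusted p = 0.0172). Its call was lost when WT replicate 1 or Malt1-/- replicate 2 was dropped (adjusted p 0.0610 and 0.0506).

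H2-T10, a non-classical class I gene, rose by 0.80 ± 0.19 (adjusted p = 0.0128), while 2 more of its probes gave 0.25 and 0.38 and did not pass. Erap1, which trims peptides for class I and was detected on 5 Malt1-/- arrays and 1 WT array, rose by 1.00 ± 0.30 (adjusted p = 0.0419), a call that held only without WT replicate 5 (adjusted p 0.0589 to 0.108 without any other array). None of 26 interferon-stimulated genes tested passed (median -0.06), beside 6.38% of all genes. Of the class II genes, which mark antigen-presenting cells, H2-Ab1 alone passed, and it fell. It read 5.53 to 9.95 in Malt1-/- and 9.23 to 11.44 in WT (-2.21 ± 0.66, adjusted p = 0.0399, a call that held only without Malt1-/- replicate 5 or WT replicate 5, with adjusted p 0.0518 to 0.149 otherwise), and its 2 other probes gave -1.56 and -1.69 and did not pass. The part of class II positive cells in these results was not tested. The kappaB letters were found before the start of 4 of 13 class I genes with a promoter (B2m, H2-D1, H2-K1 and H2-Q7). Of these, H2-K1 alone rose, and its promoter is printed.
H2-K1, chr17:34000348-34000597, - strand: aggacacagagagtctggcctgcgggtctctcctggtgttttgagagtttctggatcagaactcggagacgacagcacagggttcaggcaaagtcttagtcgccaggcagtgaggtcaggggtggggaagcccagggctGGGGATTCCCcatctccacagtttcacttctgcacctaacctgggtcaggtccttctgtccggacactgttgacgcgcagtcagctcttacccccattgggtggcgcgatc

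Transcripts of glycolysis were lower. Each of the 17 genes tested had a difference below 0, against 50.8% of all genes, and 9 of them fell (Pfkl, Pfkp, Aldoa, Aldoc, Tpi1, Gapdh, Pgk1, Pgam1 and Pkm), none rose and 8 did not pass. The median was -0.68. Under median scaling it was -0.51 beside 0.17 for all genes, 15 of 17 genes were below 0 and 2 passed. Without WT replicate 5, 11 fell (median -0.80), and without Malt1-/- replicate 1, 9 fell (median -0.73). In the RefSeq promoters (250 bases before the start, GRCm38.p6), the hypoxia core ACGTG or GCGTG on either strand was found in 12 of 16 glycolysis genes, in 64.4% of genes that fell and in 56.1% of all genes with a promoter. Of the 9 glycolysis genes that fell, 6 held the core (66.7%). The promoters of Pfkp (3 matches, in capitals) and Pgk1 (2 matches) are printed as examples from the commitment step and from the stage that yields ATP.
Pfkp, chr13:6648772-6649021, - strand: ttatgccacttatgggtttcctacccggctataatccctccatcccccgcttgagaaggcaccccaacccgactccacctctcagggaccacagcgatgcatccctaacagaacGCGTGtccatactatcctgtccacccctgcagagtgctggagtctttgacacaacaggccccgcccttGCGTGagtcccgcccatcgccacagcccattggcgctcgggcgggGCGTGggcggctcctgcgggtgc
Pgk1, chrX:106186850-106187099, + strand: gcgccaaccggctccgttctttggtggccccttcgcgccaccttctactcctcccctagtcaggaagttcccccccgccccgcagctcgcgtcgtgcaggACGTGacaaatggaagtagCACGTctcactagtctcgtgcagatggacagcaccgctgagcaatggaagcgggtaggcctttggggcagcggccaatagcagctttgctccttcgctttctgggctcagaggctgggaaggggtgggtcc

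The commitment step had the smallest adjusted p of the pathway. Pfkp, the platelet-type phosphofructokinase, read 10.01, 10.02, 10.15, 10.25 and 10.32 in Malt1-/- and 10.87, 11.39, 11.62, 11.88 and 11.94 in WT. The groups did not overlap, and WT replicate 5 was the lowest WT array (-1.39 ± 0.31, adjusted p = 0.00937). Its other probe gave -1.32. Aldoc, an aldolase isozyme, read 5.47 to 5.90 in 4 Malt1-/- arrays, 7.65 in replicate 1 and 8.23 to 8.80 in WT. That is the largest fall of the pathway (-2.43 ± 0.67, adjusted p = 0.0271). Pkm, the pyruvate kinase gene of the last step, read 13.65 to 14.07 in Malt1-/- and 14.48 to 14.75 in WT (-0.68 ± 0.16, adjusted p = 0.0101).

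The abundant middle enzymes fell by smaller amounts. Aldoa, the main aldolase, read 12.51 to 12.99 in Malt1-/- and 13.19 to 13.66 in WT (-0.84 ± 0.22, adjusted p = 0.0240). Gapdh, often used as a reference gene, read 14.03 to 14.32 in Malt1-/- and 14.24 to 14.84 in WT, with an overlap only at WT replicate 5 and Malt1-/- replicate 1 (-0.54 ± 0.14, adjusted p = 0.0251). Pgk1, phosphoglycerate kinase, read 13.74 to 14.09 in Malt1-/- and 14.13 to 14.71 in WT (-0.61 ± 0.18, adjusted p = 0.0363). Tpi1, triosephosphate isomerase, fell by 0.68 ± 0.19, and Pfkl, the liver-type phosphofructokinase, by 0.76 ± 0.20. Pgam1, phosphoglycerate mutase, fell by 0.77 ± 0.20, but another of its probes gave 0.17. Ldha, which makes lactate, read 14.80 to 14.94 in Malt1-/- and 14.94 to 15.29 in WT (-0.31 ± 0.11, adjusted p = 0.0705) and passed without WT replicate 5 (-0.37, adjusted p = 0.0280).

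Most of these calls lay near the threshold and depended on single arrays. Pfkp and Pkm passed without each of the 10 arrays in turn. Tpi1 and Pgk1 passed only without Malt1-/- replicate 1 or WT replicate 5, Aldoc only without these or WT replicate 2, and Aldoa only without these, WT replicate 4 or Malt1-/- replicate 4. The highest adjusted p of these was 0.100, for Pgk1. Gapdh was lost without WT replicates 1, 2 or 4 or Malt1-/- replicates 2 or 4, Pgam1 without WT replicates 1 or 3 or Malt1-/- replicates 2, 3 or 4, and Pfkl without WT replicates 3 or 4 or Malt1-/- replicate 2 (adjusted p 0.0504 to 0.0675). The differences themselves stayed below 0 in every case.

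**Figure D4:**
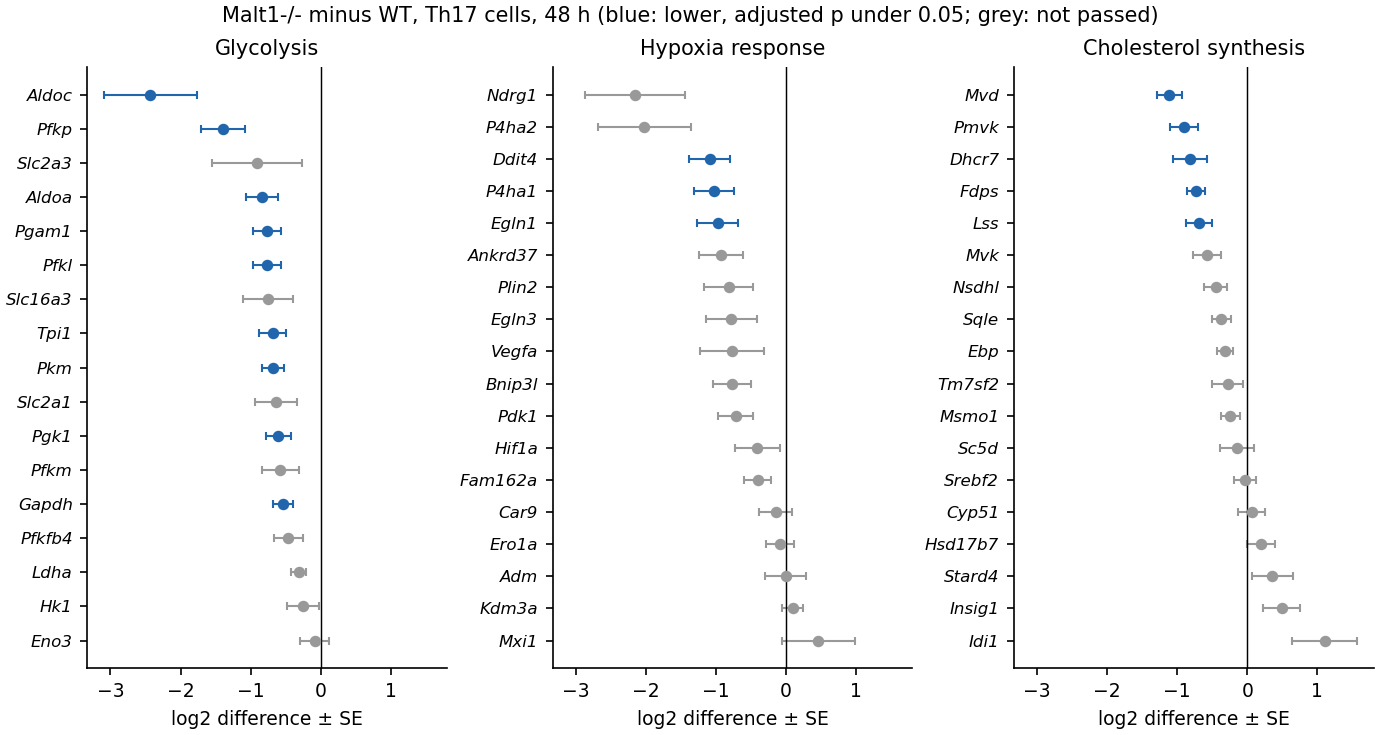
Log2 difference (Malt1-/- minus WT, 5 arrays each) with its SE for each tested gene of glycolysis, the hypoxia response and cholesterol synthesis, with genes that fell in blue and genes that did not pass in grey. All 17 glycolysis genes lie left of 0, as do 16 of 18 hypoxia-response genes and 13 of 18 cholesterol synthesis genes.

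Genes of the hypoxia response outside glycolysis leaned the same way, with few calls. Of 18 tested, 16 lay below 0, 3 fell (Egln1, P4ha1 and Ddit4), none rose and 15 did not pass, with a median of -0.77. Ddit4, an inhibitor of mTORC1, read 9.83 to 10.67 in Malt1-/- and 10.92 to 11.54 in WT (-1.09 ± 0.29, adjusted p = 0.0245). P4ha1, a collagen prolyl hydroxylase, read 7.73 to 8.06 in Malt1-/- and 8.58 to 9.26 in WT (-1.02 ± 0.28, adjusted p = 0.0277). Egln1, the oxygen sensor PHD2, fell by 0.98 ± 0.29 (adjusted p = 0.0411), while its other probes gave -0.18 and -0.49 and did not pass. Hif1a, the factor that drives this response and is controlled mostly at the protein level, differed by -0.41 ± 0.32 (adjusted p = 0.472).

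For Ndrg1 and P4ha2, WT replicate 5 lay among the Malt1-/- arrays. Ndrg1, a stress gene induced by low oxygen, read 9.35, 9.57, 9.99 and 10.35 in 4 WT arrays, 6.99 in WT replicate 5 and 6.77 to 7.65 in Malt1-/-. P4ha2, a second prolyl hydroxylase, read 7.90 to 8.56 in 4 WT arrays, 5.57 in WT replicate 5 and 5.11 to 6.72 in Malt1-/-. Neither passed with all arrays (-2.16 ± 0.72, adjusted p = 0.0601, and -2.02 ± 0.66, adjusted p = 0.0564), and both passed without that array (-2.72, adjusted p = 0.0137, and -2.55, adjusted p = 0.0125). A dimmer Ndrg1 probe gave -2.21 and passed with all arrays (adjusted p = 0.0483 over all probes). Without WT replicate 5 the list had 7 falls, without Malt1-/- replicate 1 it had 1, and under median scaling none. The call of Ddit4 was lost without WT replicates 1, 3 or 4 or Malt1-/- replicates 2 or 3, that of P4ha1 without WT replicates 1, 3 or 4 or Malt1-/- replicates 1, 2 or 5, and Egln1 passed only without Malt1-/- replicate 4 or WT replicate 5 (adjusted p 0.0528 to 0.0967). The core motif was found before 14 of 16 of these genes with a promoter, the 3 that fell among them, beside 56.1% of all.

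Enzymes that build cholesterol and fatty acids fell where they passed. Of 18 cholesterol synthesis genes tested, 5 fell (Pmvk, Mvd, Fdps, Lss and Dhcr7), none rose and 13 did not pass (median -0.30), beside 2.97% of all genes lower. The list had 6 falls without WT replicate 5 and 1 under median scaling (median -0.09 beside 0.17 for all genes). Mvd, mevalonate decarboxylase, read 8.10, 8.39, 8.50, 8.85 and 9.19 in Malt1-/- and 9.19, 9.80, 9.83, 9.88 and 9.89 in WT. WT replicate 1 and Malt1-/- replicate 1 met at one value and the others were apart (-1.11 ± 0.18, adjusted p = 2.5e-04). Fdps, which makes farnesyl diphosphate, read 12.27 to 12.67 in Malt1-/- and 13.45 at most in WT, with no overlap (-0.73 ± 0.13, adjusted p = 9.3e-04). Pmvk, phosphomevalonate kinase, read 7.80 to 8.44 in Malt1-/- and 8.88 to 9.29 in WT (-0.90 ± 0.20, adjusted p = 0.00728). All of these enzymes act in the mevalonate pathway, and Mvd, Fdps and Pmvk passed without each of the 10 arrays in turn.

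Lss, which closes the sterol rings, fell by 0.69 ± 0.19 (adjusted p = 0.0264), a call lost without WT replicates 3 or 4 or Malt1-/- replicates 2, 4 or 5 (adjusted p 0.0551 to 0.0778). Dhcr7, which completes cholesterol, fell by 0.82 ± 0.24 (adjusted p = 0.0379), and passed only without WT replicates 1 or 4 (adjusted p up to 0.0913 otherwise). Of 14 fatty acid synthesis genes, 3 fell (Scd1, Fads2 and Acss2), none rose and 11 did not pass (median -0.41). Fads2, a desaturase, read 4.76 to 5.88 in Malt1-/-, where 1 array detected it, and 5.92 to 7.15 in WT (-1.38 ± 0.34, adjusted p = 0.0151). Scd1, stearoyl-CoA desaturase, read 10.07 to 10.60 in 4 WT arrays, 7.40 in WT replicate 5 and 7.39 to 8.67 in Malt1-/-. Its difference of -1.88 ± 0.54 (adjusted p = 0.0339) became -2.49 without that WT array and passed otherwise only without Malt1-/- replicate 5 (adjusted p up to 0.0901). Acss2, which makes acetyl-CoA from acetate, fell by 0.83 ± 0.25 (adjusted p = 0.0387) and passed only without Malt1-/- replicate 1 or WT replicate 5 (adjusted p up to 0.0978).

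Chac1, a glutathione-degrading enzyme of the integrated stress response, read 9.10 to 10.04 in 4 WT arrays, 5.50 in WT replicate 5 and 5.72 to 6.49 in Malt1-/-. It fell by 2.64 ± 0.63 (adjusted p = 0.0120) and the difference was -3.43 without WT replicate 5. It was the single gene of 20 of its stress list to pass (median -0.13).

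Steroid and lipid mediator enzymes gave the largest rise of the comparison. Akr1c18, a dehydrogenase that inactivates progesterone, read 11.59, 11.79, 11.99, 12.33 and 12.42 in Malt1-/- and 6.37, 7.32, 7.33, 9.04 and 10.91 in WT. Every Malt1-/- array was above every WT array, and the WT arrays were widely spread, with replicate 5 the highest (3.83 ± 0.96, 14.2-fold, adjusted p = 0.0170). Without that array the difference was 4.51. Akr1c12, a reductase of the same family, read 7.39 to 8.69 in Malt1-/- and 6.55 to 6.90 in WT (1.39 ± 0.26, adjusted p = 0.00177). They were the 2 family members tested of 8 listed.

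The sphingosine kinases moved apart. Sphk1, which makes sphingosine 1-phosphate at the membrane, read 8.21 to 8.66 in Malt1-/- and 6.34 to 7.14 in WT (1.72 ± 0.33, adjusted p = 0.00204). Sphk2, its nuclear relative, read 8.20 to 8.64 in Malt1-/- and 8.77 to 9.42 in WT (-0.61 ± 0.16, adjusted p = 0.0245), a call lost when Malt1-/- replicate 2 or WT replicate 3 was dropped (adjusted p 0.0546 to 0.0692). Ptger2, a receptor of prostaglandin E2, rose by 1.04 ± 0.26 (adjusted p = 0.0149), a call lost when Malt1-/- replicate 1 was dropped (0.78, adjusted p = 0.0628). The remaining 9 of 12 tested lipid mediator genes did not pass.

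Those cell cycle genes that passed were all higher, where 3.41% of all genes rose. Of 25 replication genes tested, 3 rose (Mcm6, Prim1 and Cdt1), none fell and 22 did not pass (median 0.22), with 21 of 25 above 0 beside 49.2% of all genes. Of 20 mitosis genes, 3 rose (Ccna2, Kif23 and Nusap1), none fell and 17 did not pass (median 0.12). Cdt1, a licensing factor of replication origins, read 11.68 to 11.95 in Malt1-/- and 11.11 to 11.31 in WT (0.64 ± 0.17, adjusted p = 0.0240), a call lost without WT replicate 1 or Malt1-/- replicates 2 or 3 (adjusted p 0.0508 to 0.0584). Kif23, a kinesin of cell division, read 11.84 to 11.97 in Malt1-/- and 11.20 to 11.58 in WT (0.50 ± 0.13, adjusted p = 0.0201), a call lost without WT replicate 1 (adjusted p = 0.0653), and its other probes gave -0.15 to 0.32 and did not pass. Ccna2 (cyclin A2), Nusap1 (a spindle protein), Prim1 (DNA primase) and Mcm6 (a helicase subunit) each passed in at most 3 of the 10 fits that left out an array. Further probes of Mcm6 gave 0.23, 0.85 and -0.07, those of Nusap1 gave 1.05 and 0.21, and none of them passed.

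Among 17 genes of the BCL2 family and cell death tested, 2 rose (Fas and Bbc3), 1 fell (Bad, -0.71) and 14 did not pass (median 0.31). Fas, a death receptor, read 9.54 to 10.30 in Malt1-/- and 8.40 to 8.88 in WT (1.10 ± 0.27, adjusted p = 0.0145). It was the single one of 15 tumour necrosis factor receptors tested to pass. A dimmer probe of the receptor gene Tnfrsf18 gave -1.50 and passed (adjusted p = 0.0483 over all probes). The brighter Tnfrsf18 probe gave -1.35 and did not pass. Bbc3, the p53 target PUMA, read 8.53 to 9.32 in Malt1-/- and 6.99 to 8.46 in WT (1.23 ± 0.26, adjusted p = 0.00440), with WT replicate 5 the highest WT array. Of the dimmer probes, one of Fas passed with 0.80 and others gave 0.48 and 0.55, while those of Bbc3 gave 0.26 and -0.15 and did not pass.

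Several of the largest changes belonged to none of these programmes. Wdfy1, an adaptor of Toll-like receptor signals, read 9.37 to 9.77 in Malt1-/- and 7.80 at most in WT, an even rise over all arrays (2.08 ± 0.22, adjusted p = 4.8e-08). Atp1b1, a sodium pump subunit, read 10.02 to 10.41 in Malt1-/- and 7.67 to 9.50 in WT (1.91 ± 0.36, adjusted p = 0.00177). Fndc10, a membrane protein gene, rose by 1.82 ± 0.26 (adjusted p = 6.7e-05). Nme7, a nucleoside diphosphate kinase family gene, rose by 2.09 ± 0.38 (adjusted p = 0.00153), and 2 more of its probes gave 2.22 and 2.64, while 5 others gave -0.55 to 0.20 and did not pass. Ppic, which encodes cyclophilin C, read 6.38 to 7.28 in Malt1-/- and 8.63 to 9.14 in WT, the smallest adjusted p of any fall after Malt1 (-1.98 ± 0.16, adjusted p = 9.6e-11). Alpk2, an alpha kinase gene and the tested gene next to Malt1 on chromosome 18, read 5.61 to 6.01 in Malt1-/-, 7.87 to 8.01 in 4 WT arrays and 6.46 in WT replicate 5 (-1.84 ± 0.34, adjusted p = 0.00179).

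Some genes went from undetected to detected. Of the genes that rose, 112 were detected on fewer than 5 WT arrays and 27 on none, and of those that fell, 27 were detected on fewer than 5 Malt1-/- arrays and 6 on none. The WT arrays detected 14640 to 16784 probes each and the Malt1-/- arrays 16061 to 17292. The matching shares over all tested genes were not counted, so the unequal counts are not read as a result. For genes detected on none of a group's arrays a fold is a lower bound, with undetected signals raised to the lowest detected signal of their array. Aif1l, an actin-binding protein gene, was at least 2.25-fold higher in Malt1-/- (5.94 to 7.87, detected on 5 arrays) than in WT (4.64 to 5.11, detected on none; adjusted p = 6.0e-06). Vcam1, an adhesion molecule of endothelium, was at least 1.38-fold higher (detected on 5 Malt1-/- arrays and on none of WT; adjusted p = 6.7e-05).

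Markers of other cell types were then compared. S100a8, a calcium-binding protein abundant in neutrophils, read 4.75, 5.18, 6.60, 8.27 and 10.10 in Malt1-/- and 4.42 to 5.03 in WT, where no array detected it. It was at least 3.16-fold higher (adjusted p = 0.0276), a call that rested on Malt1-/- replicates 5 and 1 and was lost without either, and also without WT replicates 1, 2 or 3 (adjusted p 0.0536 to 0.106). Of 10 neutrophil markers 4 were tested and 1 rose. Their summed signal ran from 122 to 1522 in Malt1-/- and from 102 to 110 in WT. S100a9 and Elane were each detected on 2 Malt1-/- arrays and no WT array, and Ltf on no array of either genotype. Of 9 class II and dendritic cell markers 5 were tested and 1 fell, with sums of 247 to 5160 in Malt1-/- and 1832 to 9994 in WT. None passed among 5 of 10 monocyte and macrophage markers (270 to 528 against 208 to 296), 5 of 9 B cell markers (151 to 404 against 191 to 851) or 6 of 10 CD8 T and NK cell markers (4048 to 4976 against 3383 to 4699). None passed among 3 of 8 basophil and mast cell markers (78.4 to 119 against 77.9 to 130) or 2 of 9 erythroid and platelet markers (55.6 to 67.8 against 62.8 to 76.8). The part of such cells in the gene changes was not tested.

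The effect was then compared with that in Th1 cells at 48 h and in Th17 cells at 72 h, with no array shared but the gene variances taken from the same fit. The test of the difference between the effects in Th17 and Th1 cells called 15 of 10730 genes (0.14%), 8 more positive and 7 more negative in Th17 cells, and 1176 at an unadjusted p under 0.05. Of these 15, 5 were also called here. Vcam1, at least 1.38-fold higher in Th17 cells, gave -0.25 in Th1 cells, and the difference passed (adjusted p = 0.00365) with no size given, since WT Th17 signals were not well above background. Cxcr6, the receptor of the chemokine Cxcl16, rose in Th17 cells (7.03 to 7.78 against 5.27 to 6.62, 1.61 ± 0.26) and gave -0.15 in Th1 cells (difference 1.76 ± 0.37, adjusted p = 0.0286). Aif1l, under the same limit (adjusted p = 0.0211), and Zfp318, a zinc finger gene (difference 1.99 ± 0.42, adjusted p = 0.0298), leaned the same way, and Alpk2 the opposite (-2.52 ± 0.49, adjusted p = 0.0155). The Th17 rise of Zfp318 itself (1.03 ± 0.30) held only without WT replicates 4 or 5 or Malt1-/- replicate 3 (adjusted p up to 0.101 otherwise). For Il17a the effect was -2.85 in Th17 and 0.00 in Th1 cells, a difference that did not pass (-2.85 ± 0.70, adjusted p = 0.0753), and the same was true of Lif (-2.21 ± 0.50, adjusted p = 0.0508).

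Against 72 h in Th17 cells, 13 genes differed (0.121%), 4 more positive and 9 more negative at 48 h, with 1766 at an unadjusted p under 0.05 and 7 of the 13 also called here. Fdps fell at 48 h (-0.73) and gave 0.08 at 72 h (difference -0.82 ± 0.18, adjusted p = 0.0460). Ctss, the lysosomal protease cathepsin S, read 8.80 to 9.93 in Malt1-/- and 6.98 to 8.52 in WT at 48 h (1.59 ± 0.38) and gave -0.85 at 72 h (difference 2.44 ± 0.53, adjusted p = 0.0460). Vcl, which encodes vinculin, gave -0.79 and 0.51 (difference -1.30 ± 0.28, adjusted p = 0.0460), and Nhlrc3 gave 0.87 and -0.74 (difference 1.61 ± 0.29, adjusted p = 0.0119). Prpsap1, a regulator of nucleotide precursor synthesis, gave -0.70 and 0.57 (difference -1.27 ± 0.26, adjusted p = 0.0460). The 48 h calls of Vcl and Prpsap1 were lost without WT replicates 1 or 2, and that of Prpsap1 also without Malt1-/- replicates 1 or 3 (adjusted p 0.0504 to 0.0664). H2-K1, with 1.29 at 48 h and -0.32 at 72 h, just missed (1.61 ± 0.39, adjusted p = 0.0562).

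These counts of differences moved with single arrays. Without WT replicate 5, 68 genes differed between lineages and 476 between times, and without both arrays that stood apart 43 and 171, while median scaling left 12 and 0 and array weights gave 274 and 284. Of the 685 genes called here (6.38% of all 10730), 41 were called in the same direction in Th1 cells at 48 h. None was called in the opposite direction. The 41 are 5.99% of the 685 and 27.5% of the genes called there, which were 149 of all 10730. Of the 685, 83 were called in the same direction at 72 h and 1 in the opposite. Together they are 12.3% of the 685 and 17.7% of the genes called there, which were 474 of all 10730. Nfkb2 gave 1.11 here, 0.78 in Th1 cells at 48 h and 1.01 in Th17 cells at 72 h, and Ctla4 gave -1.66, -1.57 and -1.58. Ctla4 passed in each of these settings, while Nfkb2 did not pass in every one.

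**Figure D5:**
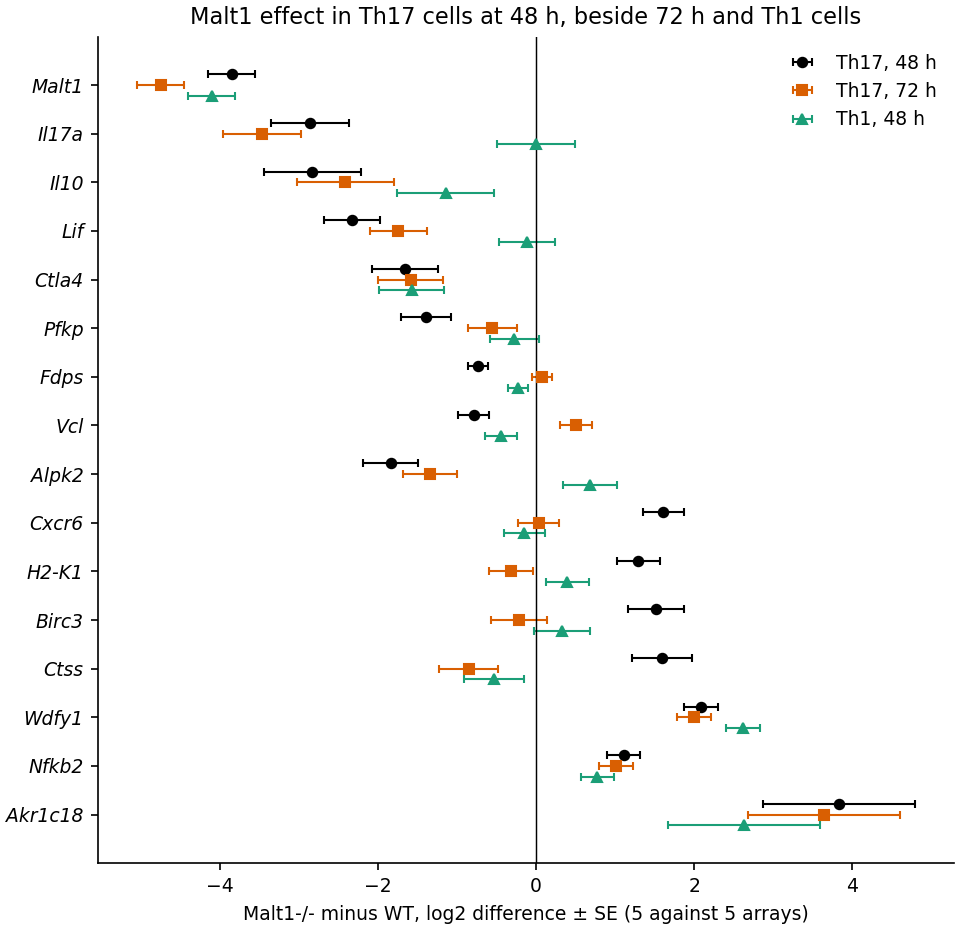
Log2 difference between Malt1-/- and WT (5 arrays each) with its SE for 16 genes, in Th17 cells at 48 h (black), Th17 cells at 72 h (orange) and Th1 cells at 48 h (green). Malt1, Ctla4, Wdfy1 and Nfkb2 lie on the same side of 0 in all 3 settings, while Cxcr6 (1.61) and Ctss (1.59) lie above 0 in Th17 cells at 48 h beside values near or below 0 in the other settings.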

How the data were processed

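Total RNA was measured on Illumina MouseWG-6 v2 bead arrays of 45281 probes. The deposited raw values are intensity: bead-summarised probe signals with no background subtraction or scaling, per the file headers and the values. Beside each signal the authors deposited a detection fraction that rises with signal, and 1 minus it was used as the detection p-value. The authors also deposited a table in log2 units, which equals log2 quantile-normalized raw signals after subtraction of each probe's median (largest absolute difference 0.0104), with column medians of -0.00105 to 0.00296 on these arrays, so its scale, centring and direction are known. No source used here names the scanning software.

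Background was corrected through those p-values, 16 was added, and signals were quantile normalized on the log2 scale (neqc, limma 3.58.1, R 4.3.3). Probes with a detection p under 0.05 on at least 5 of the 40 arrays were kept (20739), named through the platform's gene table, in which 34885 probes have 1 symbol, 18 several and 10378 are not listed, and reduced to the brightest probe of each of 10730 genes. A model with 1 mean for each of 8 groups was fitted to the 40 arrays (lmFit, eBayes), with a call at an adjusted p under 0.05 (Benjamini-Hochberg). The scripts were tested on simulated data.

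Genes named were Malt1, the 15 largest rises and falls among called genes whose groups did not overlap, up to 4 genes of smallest p in each of 44 lists, the 5 largest called differences of effects each way and a set of T cell genes. The text describes some of these. Ndrg1, Aldoa, Tpi1, Pgk1, Gapdh, Ldha, Erap1, Dhcr7, Ebi3, Irf4 and Vcam1 were added after their values were seen. The comparison, lists, rule and motifs were chosen with earlier results of these data known. Il22, Il23r, Ahr and Nfkb1 were not tested here. Chromosomes, gene order and promoters are RefSeq's (GRCm38.p6); the first promoter of a gene was used. Alternatives were the background, scaling, filter, probe rule, arrays in the fit, weights, moderation, replicate number as a block and single arrays left out.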

Additional observations from a re-analysis of the deposited data

Results flagged for a closer look

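In a group of 5, an array whose gap to its nearest neighbour exceeded 0.71 of the group's range was singled out for each of 97 genes. This gave 30 values in 194 groups, where chance gives about 1 in 20. Of these, 15 belonged to Malt1-/- replicate 1 and 9 to WT replicate 5. Over all 10730 genes, WT replicate 5 was singled out in 641 and Malt1-/- replicate 1 in 412, against 69 to 111 for the other arrays.

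Malt1-/- replicate 1 stood above its group for Il17a (10.2), Il17f (13.7), Il2 (9.87), Foxp3 (10.6), Gata3 (8.25), Ctla4 (11.88), Irf1 (12.07), Fas (10.3), Dusp4 (10.98), Aldoc (7.65), Pgk1 (14.09), Fads2 (5.88) and Aif1l (7.87). It stood below its group for Ifng (6.35) and Pkm (13.65). WT replicate 5 stood below its group for Il24 (4.66), P4ha2 (5.57), Scd1 (7.40), Chac1 (5.50), Akr1c12 (6.55) and Alpk2 (6.46), and above it for Gata3 (6.43), Cd274 (7.97) and Ptger2 (7.83). For Il24, P4ha2, Scd1, Chac1 and Alpk2 that value lay within or next to the range of the Malt1-/- arrays.

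Single values of other arrays were Map3k7 in WT replicate 4 (7.97, below its group), Ebi3 in Malt1-/- replicate 3 (5.56, above), Jund in WT replicate 2 (7.80, above), Mvd in WT replicate 1 (9.19, below), Sphk1 in Malt1-/- replicate 5 (8.66, above) and Nhlrc3 in Malt1-/- replicate 2 (6.17, above).

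The test of the difference between effects passed for Cxcr6 (1.76), Aif1l (1.52), Zfp318 (1.99), Vcam1 (1.36) and Alpk2 (-2.52) between lineages, and for Ctss (2.44), Nhlrc3 (1.61), Fdps (-0.82), Vcl (-1.30) and Prpsap1 (-1.27) between times. The fitted differences of Aif1l and Vcam1 rest on WT Th17 signals not well above background and give no exact size. The adjusted p-values ran from 0.00365 to 0.0460.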

How the results depend on the processing

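Calls depended on the processing more than directions did. Against 685 called genes, 281 to 1156 were called with single arrays left out (without WT replicate 1 and without WT replicate 5), 440 with no detection filter, 1164 with the 10 arrays alone and 2335 with array weights. The replicate number as a block gave 557. After each gene's mean in its genotype was subtracted, same-numbered arrays correlated at -0.315 to 0.112. Only 1 of 5 numbers had its own partner as the closest, so no pairing by number was seen. Other settings stayed within 1.5 times, and the 657 without both arrays that stood apart is an alternative chosen after seeing the data. The difference between lineages (15) ran from 7 to 68 with single arrays left out, and was 274 with weights and 43 without both arrays. The difference between times (13) ran from 2 to 476, and was 0 with median scaling (limma; 1061 at an unadjusted p under 0.05), 78 with no background correction and with the authors' table, 3 with no filter, 284 with weights and 171 without both arrays. Distinct genes called in the gene lists (84) ran from 41 to 124 and were 196 with weights. Signs turned for Il21 (-0.066 without both arrays), Foxp3 (0.077 with median scaling, 0.39 with the mean of probes), Zc3h12a (0.15 with median scaling) and Tnfaip3 (-0.021 without both arrays), none of which passed. Of 83 called genes of the text, 43 passed without each array in turn. Of the 25 called genes of the text with another well-detected probe, 19 had one that did not pass or had the other sign. Leaving out an array lowers the sample number, and the cause of the other shifts was not tested. Signal near background in 1 genotype limits Lif, Ebi3, Tnfsf4, Gata3, Jun, Egln1, Fads2, Erap1, Cxcr6, Nhlrc3, Aif1l, Vcam1 and S100a8.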

Other observations

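Genes called in the same direction here, in Th1 cells at 48 h and in Th17 cells at 72 h numbered 21, Malt1 among them. Of the other 20, Ppic (-1.98), Srfbp1 (1.41) and Tnfaip8 (-0.71) lie on chromosome 18, as Malt1 does, and within a stretch of 42 to 46 tested genes from it on the same side. Outside the 25 tested genes nearest to Malt1 on each side, chromosome 18 held these 3 among 200 tested genes (1.5%), against 17 of 10479 elsewhere or unplaced (0.162%). Those nearest genes held 5 of 50 called here and none called in all 3 settings, and the rest of the chromosome held 17 of 200 called here (8.50%). Among the nearest were Alpk2, the next tested gene, Nars, an asparaginyl-tRNA synthetase (-0.83 ± 0.20), and Lman1, a cargo receptor of the secretory pathway (0.79 ± 0.15). The genes were chosen with their values in view, and whether the mutant chromosome differs from WT around Malt1 was not tested.

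Of the 17 genes outside chromosome 18, some rose, among them Wdfy1 (2.08), Fndc10 (1.82), Igsf3, an immunoglobulin superfamily gene (1.76), Klra7, a killer cell lectin-like receptor (1.57), Akr1c12 (1.39) and S1pr2, a sphingosine 1-phosphate receptor (0.66), and others fell, among them Ctla4 (-1.66) and Entpd4, a nucleotidase of the Golgi (-0.94).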
